A study of Rattus norvegicus with 19 samples.

Results

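The comparison set 14 thymus arrays from rats gavaged with corn oil, at any of 3 volumes, against 5 arrays from rats gavaged with saline, which together are all 19 arrays of the series. The arrays were chosen by their titles, and the corn oil arrays were 5 of the 2 ml/kg group, 4 of the 5 ml/kg group and 5 of the 10 ml/kg group. All animals were Wistar rats, female and aged 7 weeks by their labels, dosed once daily for 14 days and housed 3 to a cage. The labels give 6 animals per group, and nothing in them says more of the replicates than a number, so p-values measure the spread between these samples. Saline was given only at 10 ml/kg, so at 2 and 5 ml/kg the groups differed in both the liquid and its volume, and these cannot be told apart.

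The thymus is the organ in which T cells mature: immature thymocytes rearrange their antigen receptor genes in the cortex, are selected on epithelial cells, and leave from the medulla. It involutes under glucocorticoids released in stress, and with age its space is taken over by fat. Corn oil is a common vehicle for compounds that do not dissolve in water. Its triglycerides reach the blood in chylomicrons, and the fatty acids released from them are ligands of the PPAR nuclear receptors, which switch on genes of fat oxidation. The question put to the data was which genes of the thymus moved with corn oil whatever its volume, so the mean of the 3 volume groups, with equal weight for each volume, was set against saline.

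The thymus label held against its markers. The thymocyte genes Rag1, Rag2, Dntt, Cd4, Cd8a, Cd8b and Cd3e and the thymic epithelial genes Prss16, Foxn1, Krt5 and Krt14 were well above background on all 19 arrays. The epithelial gene Aire was so on 15 of 19, and Psmb11 was not tested. Markers of other tissues were present too, with Adipoq and Alb above background on all 19. Cidec was so on 18, the muscle genes Ckm and Acta1 and the parathyroid gene Pth on 15, and Fga on 10. In whole tissue, fewer cells of a type and less RNA per cell cannot be told apart.

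The arrays lay on 5 slides, and slide explained 98.1% of the scores on the first principal component, which held 57.8% of the variance, whereas corn oil or saline explained 6.93%. Slides 1 and 4 each held 2 saline and 2 arrays at 2 ml/kg, slide 3 held 1 saline array and 3 at 10 ml/kg, slide 2 held 3 arrays at 5 ml/kg with 1 at 2 ml/kg, and slide 5 held 1 at 5 ml/kg with 2 at 10 ml/kg. No slide held both saline and 5 ml/kg, so a slide-blocked value at 5 ml/kg rests on single arrays that link the slides. For this reason values with slide as a block are given beside the main results. Between 69.7% and 88.4% of spots were well above background on an array. Saline replicate 2 stood apart from the other saline arrays in fat genes, at 1.92 for Adipoq against -3.85 to -0.89. Levels here and below are log2 intensities relative to the 75th percentile of the array, and differences are corn oil minus saline on that log2 scale, ± SE.

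No gene met the full criterion of the comparison. Of 22667 genes tested with limma, 23 (0.101%) passed the threshold of 0.05 on the adjusted p for the mean of the 3 volumes, 14 higher (0.0618%) and 9 lower (0.0397%) with corn oil. Of these, 10 (0.0441%) had the same direction at each volume. None (0%) kept a call in each of the 3 comparisons that leave out 1 volume, and none of the 22667 had all 14 corn oil arrays above or all 14 below the 5 saline arrays. At an unadjusted p under 0.05 the mean passed for 1423 genes (6.28%). The whole criterion, read at unadjusted p, was met by 130 genes (0.574%), 52 higher (0.229%) and 78 lower (0.344%), and by 425 (1.87%) with slide as a block, with 35 (0.154%) in both fits.

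What decided the calls was the 10 ml/kg group. Alone against saline, 10 ml/kg had 1436 genes past the threshold (6.34%), while 2 ml/kg and 5 ml/kg had 0 each (0%). These counts come from the fit without a slide block. The 10 ml/kg arrays lay only on slide 3, with 1 saline array, and slide 5, with 0. Slide and volume are therefore largely mixed in the 10 ml/kg count. Leaving 10 ml/kg out gave 0 genes (0%), with 647 (2.85%) at an unadjusted p under 0.05 and a smallest adjusted p of 0.961. With slide as a block this was 0 genes (0%), with 877 (3.87%) at unadjusted p. Leaving out 2 ml/kg gave 138 genes (0.609%), or 72 (0.318%) with the block, and leaving out 5 ml/kg gave 94 (0.415%), or 152 (0.671%) with the block. All 23 called genes had their largest difference at 10 ml/kg, passed the threshold there, and lost the call without that volume. Their differences at 10 ml/kg were 1.25 to 8.25 in size, against at most 0.32 at 2 ml/kg and 0.42 at 5 ml/kg.

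**Figure D1:**
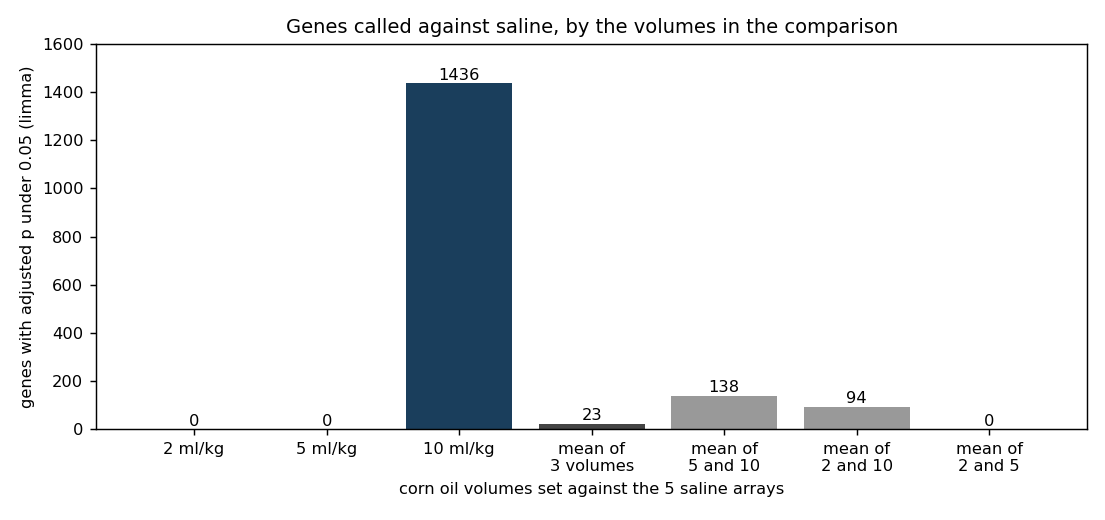
Number of genes with an adjusted p under 0.05 (limma, vertical axis) in each comparison with the 5 saline arrays (horizontal axis), for single volumes and for means over volumes. Bars are counts of 22667 genes from the fit without a slide block. Every comparison that includes 10 ml/kg has calls, from 23 to 1436, and those of 2 ml/kg, 5 ml/kg and their mean have 0.

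The difference among volumes was tested directly. An F test over the 3 corn oil groups passed for 1927 genes (8.5%), the 23 called genes all among them. The saline arrays enter it only through the shared estimate of the spread. With slide as a block, where the saline arrays also help to set the slide effects, the F test passed for 255 genes (1.12%). With the block the mean contrast called 44 genes (0.194%), 37 of them (0.163% of all genes) in the same direction at each volume, and again none met the full criterion. Both fits called 14 genes (0.0618%). Of the 44, 35 were higher with corn oil, against 14 of 23 without the block. Without slide 1, an alternative chosen after seeing the data, 15 were called.

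Of the 23 called genes, 15 have a symbol, and the largest mean difference among these was that of Vegfb, which encodes vascular endothelial growth factor B. Its average came from 1 volume. Its levels were -1.83, -0.83, -1.78, -1.91 and -1.70 in the saline arrays. They were -1.63, -1.60, -1.30, -1.27 and -1.53 at 2 ml/kg and -1.43, -1.42, -1.54 and -1.34 at 5 ml/kg. At 10 ml/kg they were -9.97, -9.86, -10.26, -9.51 and -9.70. The saline, 2 ml/kg and 5 ml/kg arrays overlapped, and the 5 arrays at 10 ml/kg lay far below all others and were not well above background. The mean over volumes fell by 2.64 ± 0.15 (adjusted p = 5.93e-08), made of 0.14, 0.18 and -8.25 in order of volume, and at 10 ml/kg the level was at least 84.87-fold lower. This bound sets the mean saline level against, on each dim array, the higher of its own signal and the lowest signal well above background. Within the slides that hold both liquids, the difference was 0.39 on slide 1 and -0.12 on slide 4 at 2 ml/kg, and -8.33 on slide 3 at 10 ml/kg.

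Bad, which promotes cell death by binding survival proteins of the BCL2 family, went the other way at the same volume. Its levels were -5.56, -5.41, -5.15, -5.91 and -5.89 with saline, -5.58, -5.26, -4.86, -5.66 and -5.95 at 2 ml/kg and -6.00, -5.92, -6.00 and -5.74 at 5 ml/kg. At 10 ml/kg they were -0.42, -0.57, -0.64, -0.76 and -0.78, above every other array. The mean rose by 1.58 ± 0.15 (adjusted p = 3.33e-05), although the difference was 0.12 at 2 ml/kg and -0.33 at 5 ml/kg. In the order of protein-coding genes of RefSeq assembly GRCr8, 4 genes lie between Bad and Vegfb on chromosome 1. Among the 15 called genes with a symbol, the next closest pair was Gdf3 and Tuba8 on chromosome 4, with 17 genes between them.

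The 250 bases before the start of each of these neighbours are shown because they are the symbol-bearing called genes with the largest fall and one of the largest rises, and lie near each other. They are RefSeq sequences of GRCr8, Vegfb from chr1:213607153-213607402 on the minus strand and Bad from chr1:213562864-213563113 on the plus strand, read 5′ to 3′ along the gene. Capitals mark 3 motifs searched on both strands: AGAACA (a glucocorticoid receptor half-site), AGGTCA (a nuclear receptor half-site, of which PPAR sites are built) and GGGCGG (a GC box).
Vegfb: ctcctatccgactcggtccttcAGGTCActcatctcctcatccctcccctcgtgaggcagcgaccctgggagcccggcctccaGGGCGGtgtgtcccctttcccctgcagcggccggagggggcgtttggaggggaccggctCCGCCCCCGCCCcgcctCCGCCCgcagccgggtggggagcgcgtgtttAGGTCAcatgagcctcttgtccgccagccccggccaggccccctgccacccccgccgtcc
Bad: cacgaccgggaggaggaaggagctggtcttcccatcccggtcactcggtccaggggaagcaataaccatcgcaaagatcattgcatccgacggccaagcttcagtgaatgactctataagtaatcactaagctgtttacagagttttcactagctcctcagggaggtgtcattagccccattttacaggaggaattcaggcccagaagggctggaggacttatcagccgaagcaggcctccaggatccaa
The Vegfb window held AGGTCA 2 times and GGGCGG 4 times, counting overlapping matches and either strand, and no AGAACA, and the Bad window held none of the 3. Among 33360 RefSeq promoter windows of that length, 14.1% held AGGTCA, 30.5% GGGCGG and 17.5% AGAACA. A match describes the letters and is not a binding site.

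The other called genes with symbols repeated the same shape, level at 2 and 5 ml/kg and displaced at 10 ml/kg. Mei1, which acts in meiotic recombination, had levels of -6.47 to -5.66 with saline, -6.68 to -5.47 over both lower volumes, and -0.94, -0.74, -0.37, -0.54 and -0.55 at 10 ml/kg. It was well above background on 3 of 5 saline arrays and on 3 of 5 at 2 ml/kg. Its mean rose by 1.85 ± 0.19 (adjusted p = 7.92e-05), from 0.04, 0.04 and 5.47 in order of volume. Lcn2, lipocalin 2, which binds bacterial siderophores, rose by 1.51 ± 0.17 on average (adjusted p = 0.000282), from 0.06, -0.33 and 4.80. At 10 ml/kg every array of either gene lay above all 14 arrays of the other 3 groups.

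Among the called genes that were lower, Gdf3, a ligand of the TGF-beta family, had saline levels of -3.51, -3.19, -3.60, -3.29 and -3.61. At 10 ml/kg the levels were -7.71, -8.78, -8.82, -8.02 and -7.81, all below every other array, with 1 of 5 well above background. The mean fell by 1.66 ± 0.18 (adjusted p = 0.00015), from -0.10, -0.08 and -4.79, and another probe of the gene gave -1.68 with -4.46 at 10 ml/kg. Fastkd2, a mitochondrial RNA-binding protein, fell by 0.63 ± 0.06 (adjusted p = 5.51e-05), from -0.07, -0.14 and -1.67. Its levels were 1.66 to 1.88 with saline, 1.47 to 1.79 at the lower volumes and -0.02 to 0.18 at 10 ml/kg. Mlycd, malonyl-CoA decarboxylase, which removes an inhibitor of mitochondrial fatty acid uptake, fell by 0.80 ± 0.13 (adjusted p = 0.0205), from 0.04, -0.02 and -2.42. Slide as a block gave an adjusted p of 0.124, and the call was lost without saline replicates 1, 3, 4 or 5 (adjusted p = 0.0512, 0.0767, 0.104 and 0.0655). Cfap68, a protein of the cilia axoneme, fell by 0.84 ± 0.12 (adjusted p = 0.00461), mostly at 10 ml/kg with -2.38; the block gave an adjusted p of 0.0671, another probe gave -0.30, and normexp background correction turned the sign to 0.12 (adjusted p = 0.947).

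Tuba8, Spata46 and Vsig8 had the largest differences at the lower volumes among the called genes with a symbol that were higher at each volume, and they too were uneven. Tuba8, an alpha tubulin, rose by 0.62 ± 0.11 on average (adjusted p = 0.0405), from 0.16, 0.20 and 1.50. Spata46, a spermatogenesis gene, rose by 0.95 ± 0.17 (adjusted p = 0.0405), from 0.16, 0.42 and 2.28, and was well above background on 3 of 5 saline arrays. Vsig8, an immunoglobulin-domain membrane protein, rose by 0.54 ± 0.09 (adjusted p = 0.0234), from 0.32, 0.06 and 1.25. The F test of volumes passed for each, at an adjusted p of 9.12e-06, 1.01e-05 and 1.01e-05. Slide as a block put all 3 outside the threshold (adjusted p = 0.27, 0.172 and 0.227). Over the 19 fits that leave out 1 array each, Tuba8 was called in 6, Spata46 in 3 and Vsig8 in 13, and without saline replicate 4 the adjusted p-values were 0.208, 0.107 and 0.112. Normexp background correction left Fastkd2, Lcn2 and Mlycd past the threshold (adjusted p = 0.00477, 0.0387 and 0.0377). It gave smaller differences without a call for Vegfb (-0.79, adjusted p = 0.913), Bad (1.41, 0.0982), Mei1 (1.58, 0.0982) and Gdf3 (-0.46, 0.913), and none of Tuba8, Spata46 and Vsig8 was called (0.435, 0.913 and 0.325). Quantile normalization ended the calls of Spata46 (0.276), Vsig8 (0.245) and Cfap68 (0.591).

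**Figure D2:**
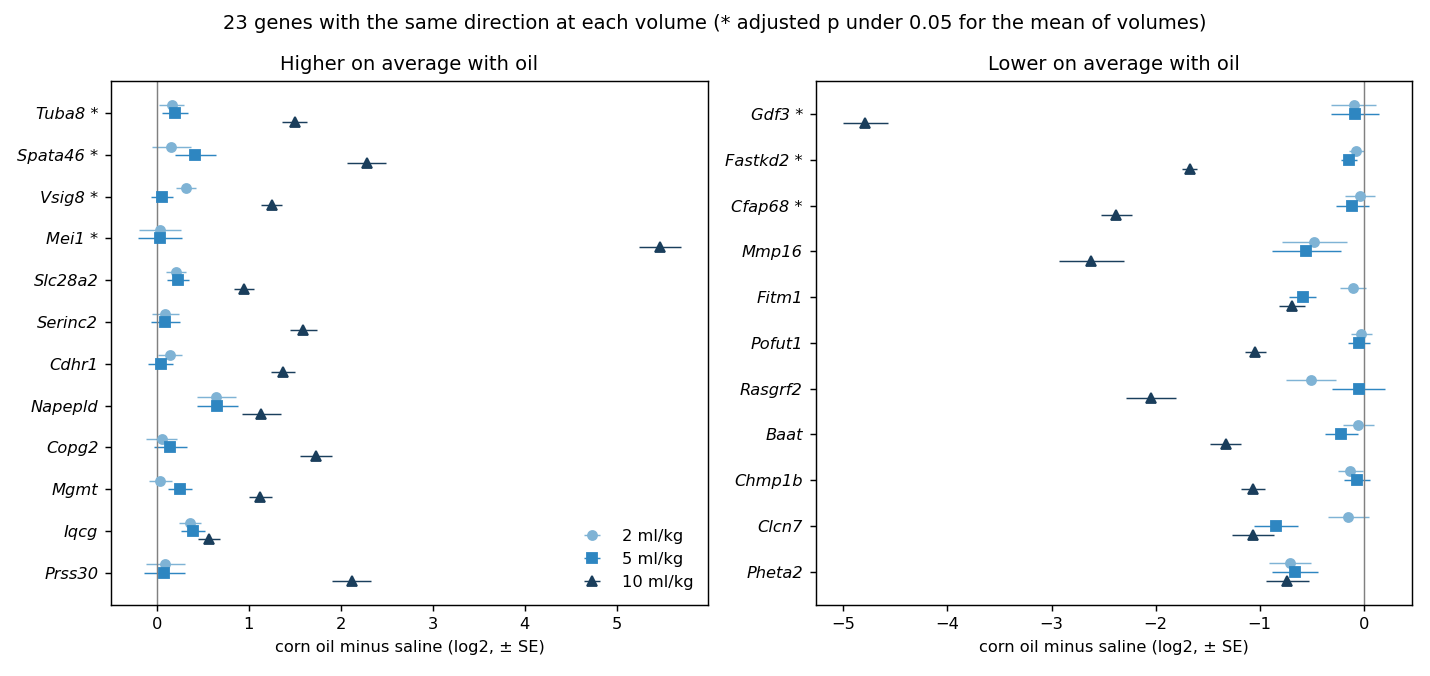
Corn oil minus saline differences (log2, ± SE, horizontal axis) at 2, 5 and 10 ml/kg for 23 genes (vertical axis) with the same direction at each volume, 12 higher and 11 lower; an asterisk marks an adjusted p under 0.05 for the mean. In most genes the 10 ml/kg symbol lies apart from the other 2, as in Mei1 at 5.47 and Gdf3 at -4.79, while those of Iqcg and Pheta2 lie close together.

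Several genes had the same sign at all 3 volumes without passing the threshold. Over all genes, 6595 (29.1%) had the same sign at each volume, called or not, with 3198 (14.1%) higher and 3397 (15%) lower. All 3 differences subtract the same saline arrays, so their signs are not independent, here and in the counts of lists below. Napepld encodes the phospholipase that makes N-acylethanolamines, lipid messengers such as anandamide, from membrane phospholipids. Its levels were -7.22, -6.93, -7.86, -7.66 and -6.48 with saline and -6.33, -6.80, -6.92, -6.16 and -6.71 at 2 ml/kg. They were -6.77, -6.54, -6.36 and -6.63 at 5 ml/kg and -6.06, -6.07, -6.12, -6.01 and -6.23 at 10 ml/kg. All 14 corn oil arrays lay above the saline median and 8 above the highest saline array, which was replicate 5. The differences were 0.65, 0.66 and 1.14, with a mean of 0.81 ± 0.17 (adjusted p = 0.142) and an adjusted p of 0.172 in the F test of volumes. With slide as a block the mean was 0.68 (adjusted p = 0.0845), and another probe gave 0.50. The threshold was passed without saline replicate 5 (1.00, adjusted p = 0.0141), with scan day as a block (0.72, adjusted p = 0.0131) and with array weights (0.93, adjusted p = 0.0134). Of the 13 alternatives other than leaving out 1 array, 11 gave no call, with 0.61 under normexp (adjusted p = 0.913), 1.73 under quantile normalization (adjusted p = 0.408) and 0.52 without slide 1 (adjusted p = 0.89). The gene is dim, well above background on 3 of 5 saline arrays and on 12 of 14 with corn oil.

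Pheta2, an endosomal adaptor protein, had nearly equal differences of -0.71, -0.66 and -0.73 (mean -0.70 ± 0.17, adjusted p = 0.237). Its levels were -5.56, -5.21, -5.02, -6.35 and -5.79 with saline, and those of the corn oil groups, in order of volume, ran from -6.42 to -6.09, from -6.70 to -5.95 and from -6.58 to -6.09. Saline replicate 4 lay among the corn oil arrays, and without it the mean was -0.89 (adjusted p = 0.0256). With slide as a block the differences of Pheta2 were -0.68, -0.40 and -0.55, with a mean of -0.54 (adjusted p = 0.633). Normexp gave 0.12 (adjusted p = 0.945). Iqcg, a protein of cilia and flagella, had differences of 0.36, 0.39 and 0.57, a mean of 0.44 ± 0.10 (adjusted p = 0.174), and 12 of 14 corn oil arrays above the highest saline array, the most of any named gene in either direction. With the block its mean was 0.54 (adjusted p = 0.17). Iqcg is dim too, well above background on 3 of 5 saline arrays and on 4 of 5 at 2 ml/kg.

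Ddit4, also called Redd1, an inhibitor of the kinase mTORC1 that glucocorticoids, hypoxia and nutrient shortage induce, was the member of the glucocorticoid list with the smallest p. Its saline levels were 2.17, 2.76, 1.65, 2.41 and 2.41. The 2 ml/kg arrays were at 1.68, 1.63, 1.69, 1.28 and 1.68, and the 5 ml/kg arrays at 1.21, 1.45, 0.45 and 1.59. The 10 ml/kg arrays were at 2.27, 1.50, 2.00, 1.56 and 1.54. Each corn oil array lay below the saline mean, but saline replicates 1 and 3 lay inside the corn oil range. The mean was -0.77 ± 0.19 (unadjusted p = 0.000794, adjusted p = 0.252), from -0.69, -1.11 and -0.51, with -0.76 under the slide block and -0.65 without saline replicate 2. Within slides it was -0.37 and -0.99 at 2 ml/kg (slides 1 and 4) and -0.49 at 10 ml/kg (slide 3). Slc7a10, a transporter of small neutral amino acids found in fat cells and brain, was picked out after its values were seen and has no test beyond the fit of all genes. Its differences were 1.12, 1.21 and 1.41, with a mean of 1.25 ± 0.31 (adjusted p = 0.293), and all 14 corn oil arrays lay above the saline mean. Saline ran from -6.77 to -4.91 and corn oil from -5.29 to -3.46, so the ranges overlapped.

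The starts of Napepld and Ddit4 are shown as those of uncalled genes with the same sign at all 3 volumes, on the same terms as above. The windows are chr4:14253010-14253259 on the plus strand and chr20:28437038-28437287 on the minus strand of GRCr8.
Napepld: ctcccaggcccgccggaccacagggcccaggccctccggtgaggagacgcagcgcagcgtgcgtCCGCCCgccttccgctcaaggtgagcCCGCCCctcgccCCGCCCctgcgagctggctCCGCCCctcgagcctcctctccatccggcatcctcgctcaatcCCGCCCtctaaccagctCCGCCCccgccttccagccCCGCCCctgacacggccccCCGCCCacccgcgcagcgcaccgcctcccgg
Ddit4: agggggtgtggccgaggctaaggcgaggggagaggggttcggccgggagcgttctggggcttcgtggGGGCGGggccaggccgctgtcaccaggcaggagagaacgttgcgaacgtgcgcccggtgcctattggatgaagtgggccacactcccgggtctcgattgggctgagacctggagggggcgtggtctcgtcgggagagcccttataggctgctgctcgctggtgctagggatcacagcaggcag
The Napepld window held GGGCGG 8 times and the Ddit4 window 1 time, and neither held AGAACA or AGGTCA, which says only that these letters are not in these 250 bases.

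**Figure D3:**
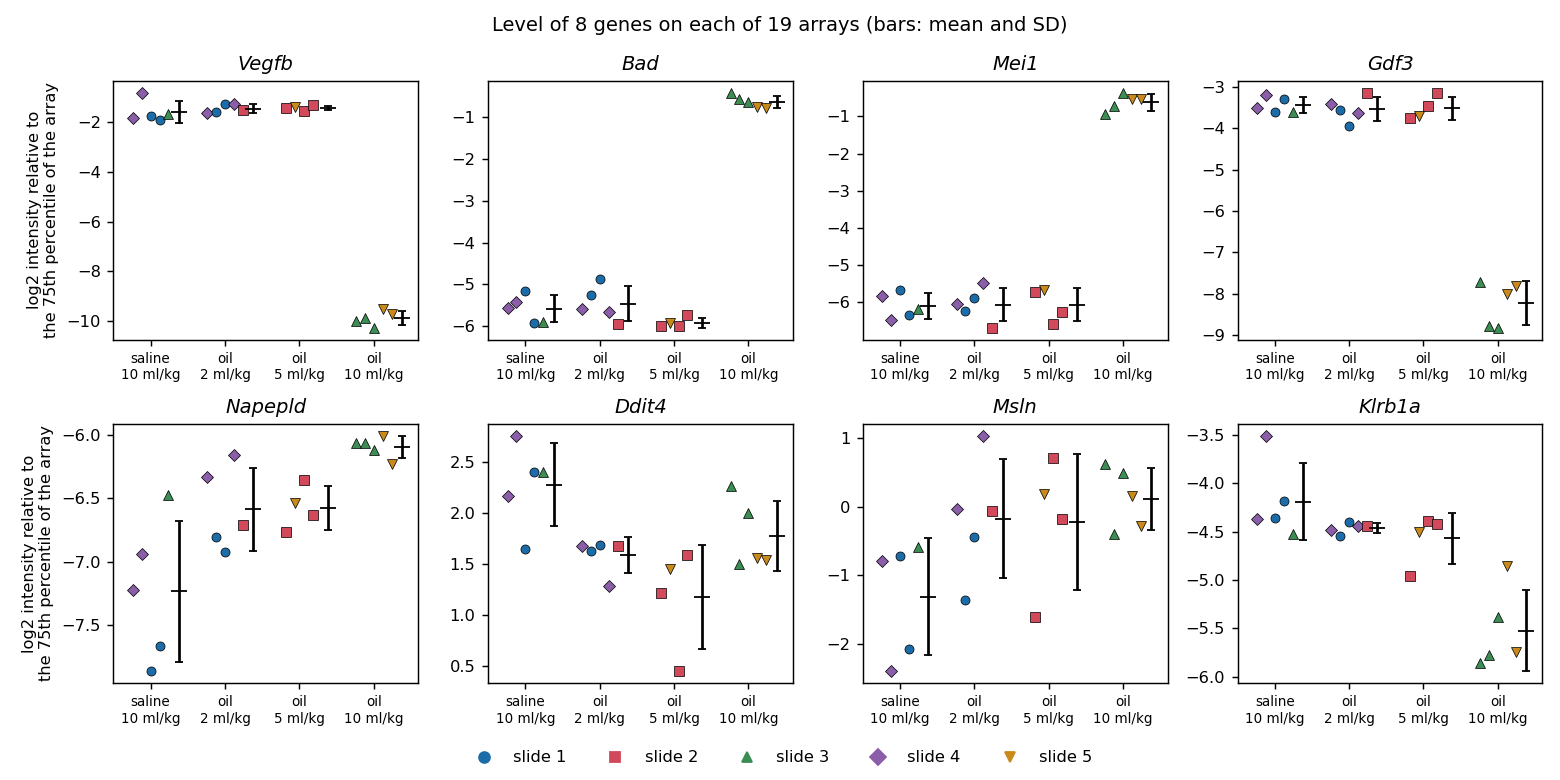
Levels of 8 genes (log2 intensity relative to the 75th percentile of the array, vertical axis) on each of the 19 arrays, by group (horizontal axis); symbols and colours mark the slide, and bars the mean and SD of the group. In the top row the 10 ml/kg arrays stand apart and the lower volumes overlap saline; in the bottom row the differences are smaller and saline overlaps at least 1 corn oil group, as for Napepld, whose saline arrays run from -7.86 to -6.48.

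The remaining genes named for a shared sign had smaller differences at 2 ml/kg than at 10 ml/kg and gave no call, with adjusted p-values of 0.0888 to 0.233. Higher on average were Slc28a2, a nucleoside transporter (0.46 ± 0.09, with -0.04 for another probe), Serinc2, which inserts serine into membrane lipids (0.59 ± 0.12), the photoreceptor cadherin Cdhr1 (0.52 ± 0.11) and the coat protein gene Copg2 (0.64 ± 0.14, with -0.28 for another probe). The DNA repair gene Mgmt (0.47 ± 0.10) and the serine protease gene Prss30 (0.76 ± 0.17) completed this side. Lower on average were the metalloproteinase gene Mmp16 (-1.22 ± 0.26), Fitm1, which partitions fat into droplets (-0.46 ± 0.10), and the Notch fucosyltransferase gene Pofut1 (-0.37 ± 0.08). Rasgrf2, a Ras exchange factor (-0.87 ± 0.20), Baat, which conjugates bile acids (-0.53 ± 0.12), the ESCRT gene Chmp1b (-0.42 ± 0.10) and the lysosomal chloride exchanger gene Clcn7 (-0.69 ± 0.16) completed the other. Mmp16 and Rasgrf2 were not well above background on any array at 10 ml/kg, and were so on only 3 and 1 of 5 saline arrays. Mmp16 lay at -5.78 in saline replicate 2 against -8.17 to -7.47 in the other saline arrays. No lower bound on the fall of either gene is therefore given. Normexp turned Mmp16, Rasgrf2, Fitm1 and Baat to 0.35, 0.64, 0.15 and 0.11, none called. Prss30 was called when slide was a block (1.07, adjusted p = 0.0334). Fitm1 and Clcn7 had differences at 5 ml/kg (-0.59 and -0.84) close to those at 10 ml/kg (-0.69 and -1.07), and smaller ones at 2 ml/kg (-0.10 and -0.15).

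Genes of T cell development did not pass the test. Of 18 tested members of the thymocyte list, 0 were called, 1 had an unadjusted p under 0.05, 3 were higher and 6 lower at each volume, and the median difference was 0.00, against -0.02 over all genes; the slide block gave -0.09, and leaving out saline replicate 2 gave -0.05, where 13 of 18 members were below 0. Rag1, which cuts the antigen receptor genes, differed by 0.00 (95% interval -0.20 to 0.21), and Cd8a, a coreceptor, by -0.10 (-0.25 to 0.05), or -0.20 (-0.37 to -0.04; adjusted p = 0.522) with slide as a block. Dntt, which adds bases at the joins of those genes, differed by 0.06 (-0.23 to 0.35). Cd4 was at -0.21 (-0.40 to -0.02), with an adjusted p of 0.781. The regulatory T cell factor Foxp3 differed by -0.06 (-0.41 to 0.29; 0.11 with the block), and Aire, which drives tissue antigens in the medulla, by 0.00 (-0.38 to 0.37).

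The list of fat oxidation genes and known targets of the PPAR receptors included no called gene. Mlycd, called and described above, is not in that list. Of 29 tested members, 6 passed the F test of volumes (0 with slide as a block), against 8.5% and 1.12% of all genes. Of the members, 1 was higher and 2 were lower at each volume. The medians at 2, 5 and 10 ml/kg were 0.00, 0.10 and -0.38. Over all genes the medians were 0.04, -0.01 and -0.13. The median of the mean contrast was -0.07 with 9 members above 0, and 0.12 with 21 above 0 without saline replicate 2; the slide block gave 0.10. Cpt1a, which takes fatty acids into mitochondria, differed by 0.30 (0.08 to 0.53; adjusted p = 0.698), with 0.71 at 10 ml/kg and an adjusted p of 0.00814 in the F test. Pdk4, which spares glucose when fat is burned, was not well above background on any array at 10 ml/kg and was so on 2 of 5 saline arrays, where replicate 2 lay at -4.14 against -7.80 to -7.32 in the others. Its measured mean difference of -0.66 includes those dim arrays and was 0.04 without saline replicate 2 and 0.31 with normexp. Angptl4, an inhibitor of lipoprotein lipase, was at 0.24 (-0.35 to 0.83), or 0.58 without that array.

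Of the 18 fixed thymus, lipid and stress genes reported here, 0 passed the threshold, with 2 at an unadjusted p under 0.05 and 0 past it with slide as a block. For 14 of them the 95% interval lay within 1 log2 unit of 0, a factor of 2 either way, and for 13 with the block. Over all genes this held for 17148 (75.7%), or 18929 (83.5%) with the block. The widest intervals belonged to the fat cell genes, with Adipoq, the hormone of adipocytes, at 1.29 (-0.23 to 2.82) and the desaturase gene Scd at 0.87 (-0.67 to 2.40). Without saline replicate 2 they were at 2.07 and 1.52, and the uncoupling protein gene Ucp3 was at 0.82 instead of 0.24. These intervals span both 0 and differences of more than 1 log2 unit.

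**Figure D4:**
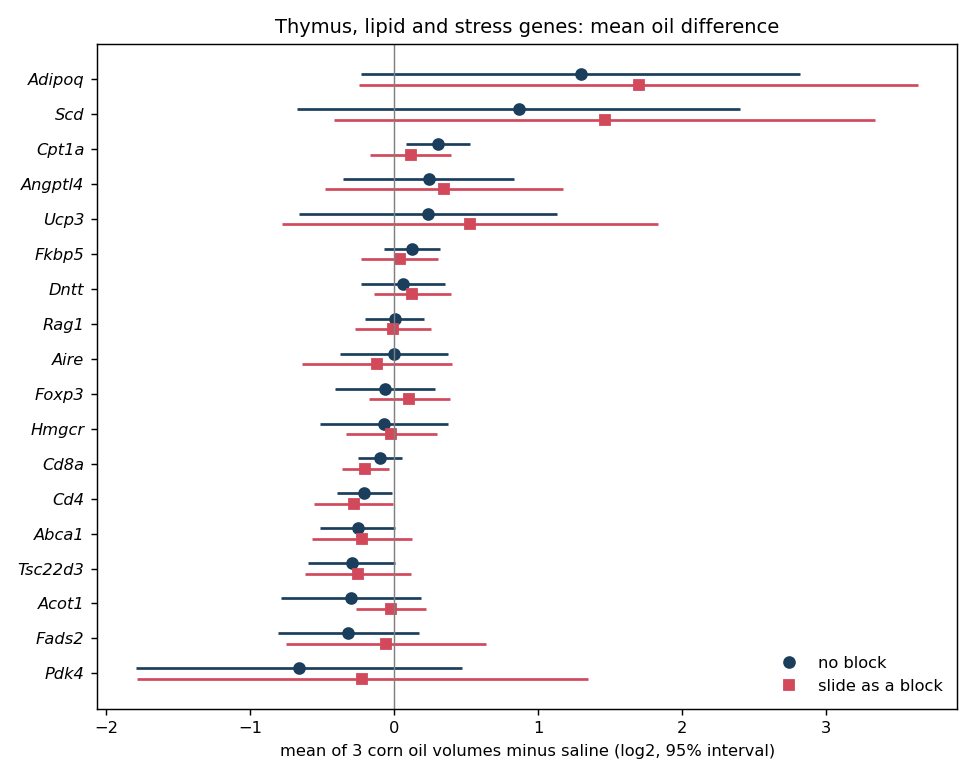
Mean difference of corn oil from saline (log2, horizontal axis) for 18 thymus, lipid and stress genes (vertical axis), with 95% intervals, without a block (circles) and with slide as a block (squares). Most intervals lie within 1 of 0, as for Rag1 from -0.20 to 0.21, and those of Adipoq, Scd, Pdk4 and Ucp3 are wider.

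Over all 35 gene lists, 588 genes were tested and 4 were called, which are Lcn2, Bad, Vegfb and Gdf3. Over all genes 23 of 22667 (0.101%) were called. The lists were chosen with earlier results of these data known, so a higher share in them is no evidence of an excess. Of the 588, 54 (9.18%) had an unadjusted p under 0.05, against 6.28% over all genes, and 192 (32.7%) the same sign at each volume, against 29.1%. Lists are described here by counts and medians, with no test of a list.

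The list of natural killer and cytotoxic cell genes had 13 tested members, of which 0 were called, 3 had an unadjusted p under 0.05, 10 were lower and 0 higher at each volume; over all genes 15% were lower at each volume. Its median was -0.28, from -0.06, -0.38 and -0.36 at 2, 5 and 10 ml/kg. It was -0.24 under the slide block, -0.22 without saline replicate 2 and -0.11 with normexp. Within slides the list median was -0.02 and -0.22 at 2 ml/kg (slides 1 and 4) and -0.23 at 10 ml/kg (slide 3). Klrb1a, a receptor of natural killer cells, had saline levels of -4.37, -3.51, -4.36, -4.18 and -4.52, 2 ml/kg levels of -4.54 to -4.40 and 5 ml/kg levels of -4.96 to -4.39. At 10 ml/kg they were -5.86, -5.78, -5.38, -4.85 and -5.74, below all saline and 2 ml/kg arrays. Its mean was -0.66 ± 0.17 (adjusted p = 0.268), or -0.49 without saline replicate 2, and -0.10 with normexp. Ncr1, the activating receptor NKp46, was at -1.45 ± 0.37 (adjusted p = 0.294), well above background on 8 of 19 arrays, with -0.62 under the slide block and 0.22 with normexp. The granzyme gene Gzmk was at -0.76 ± 0.27 (adjusted p = 0.698) and the chemokine gene Ccl5 at -0.44 ± 0.24 (adjusted p = 0.781).

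Genes of epithelial and mesothelial lining had 10 tested members, of which 0 were called, 4 had an unadjusted p under 0.05, 6 were higher and 1 lower at each volume, against 14.1% and 15% over all genes. The median was 0.24, from 0.26, 0.21 and 0.45, and 0.17 without saline replicate 2. Msln, mesothelin, a surface protein of the mesothelium that lines the chest cavity, had saline levels of -0.80, -2.40, -0.72, -2.08 and -0.59. The 2 ml/kg arrays were at -0.03, -1.37, -0.44, 1.03 and -0.06, and the 5 ml/kg arrays at -1.61, 0.18, 0.71 and -0.19. The 10 ml/kg arrays were at 0.62, -0.40, 0.49, 0.15 and -0.29. Saline overlapped the lower volumes, and the 5 arrays at 10 ml/kg lay above the highest saline array. The mean was 1.22 ± 0.40 (adjusted p = 0.624), from 1.14, 1.09 and 1.43, and 0.95 without saline replicate 2. Upk1b, a uroplakin of lining cells, was at 1.17 ± 0.53 (1.42, 1.07 and 1.02), and Krt19, a keratin of simple epithelia, at 0.59 ± 0.16 (0.40, 0.37 and 0.99), neither past the threshold (adjusted p = 0.781 and 0.368). Itln1, an intelectin, was at 0.21, 0.17 and -4.42. The keratin gene Krt4 was the member lower at each volume, at -0.07, -0.88 and -1.02 with a mean of -0.66 ± 0.41 (adjusted p = 0.786), which became 0.00 with slide as a block. How much lining tissue came with each thymus is not given in the labels, and its part in these values was not tested.

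Lists of fat cell, liver plasma protein, granulocyte and B cell genes moved unevenly over volumes. White adipocyte genes had medians of 0.70, 0.91 and -0.51, in order of volume, over 18 members, 0 called, and the mean-contrast median was 0.36, or 0.88 without saline replicate 2. Adipoq ran from -3.85 to 1.92 in saline, and in the corn oil groups, in order of volume, from -0.68 to 1.30, from 0.75 to 1.39 and from -3.14 to 0.48. Plasma protein genes of the liver had medians of 0.03, -0.42 and -0.94 over 16 members, 6 with an unadjusted p under 0.05 and 0 called, and normexp turned their mean-contrast median from -0.50 to 0.13. Granulocyte and mast cell genes had medians of 0.06, 0.03 and 0.96 over 19 members, with 9 higher and 0 lower at each volume and Lcn2 called; Epx and Prg2, of eosinophil granules, were at 1.15 ± 0.46 and 0.64 ± 0.27 (adjusted p = 0.78 and 0.781). B cell genes had medians of -0.40, -0.43 and 0.19 over 14 members, 0 called, and their mean-contrast median of -0.18 became 0.16 without saline replicate 2 and 0.02 with normexp.

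The 3 stress lists held no called gene. Genes of the unfolded protein and amino acid response had medians of 0.05, 0.13 and 0.11 over 21 members, with 8 higher and 0 lower at each volume and 4 at an unadjusted p under 0.05. The F test of volumes passed for 8 of them, or 1 with slide as a block, against 8.5% and 1.12% of all genes. The mean-contrast median was 0.11, or 0.05 with the block, whose medians by volume were 0.02, -0.01 and 0.05. Atf6, a sensor of unfolded protein in the endoplasmic reticulum, was at 0.42 ± 0.14 (0.09, 0.28 and 0.89; adjusted p = 0.648), and the chaperone gene Calr at 0.27 ± 0.12 (adjusted p = 0.781). Heat shock genes had medians of 0.09, 0.09 and 0.08 over 13 members, with 7 higher and 0 lower at each volume and 0 past the F test. Their mean-contrast median was 0.10, or 0.06 with the block and 0.04 without saline replicate 2. Glucocorticoid response genes had a median of -0.01 over 20 members, with 3 higher and 5 lower at each volume. The F test passed for 3 of them, or 0 with the block, against 8.5% and 1.12% of all genes. Their median was 0.06 without saline replicate 2, 0.07 with normexp and 0.05 with quantile normalization. Tsc22d3, the glucocorticoid-induced leucine zipper, was at -0.30 ± 0.14 (-0.36, -0.33 and -0.20; adjusted p = 0.781) and Dusp1, a phosphatase of MAP kinases, at -0.28 ± 0.11 (-0.24, -0.26 and -0.33; adjusted p = 0.773). Without saline replicate 2 they were at -0.21 and -0.17.

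**Figure D5:**
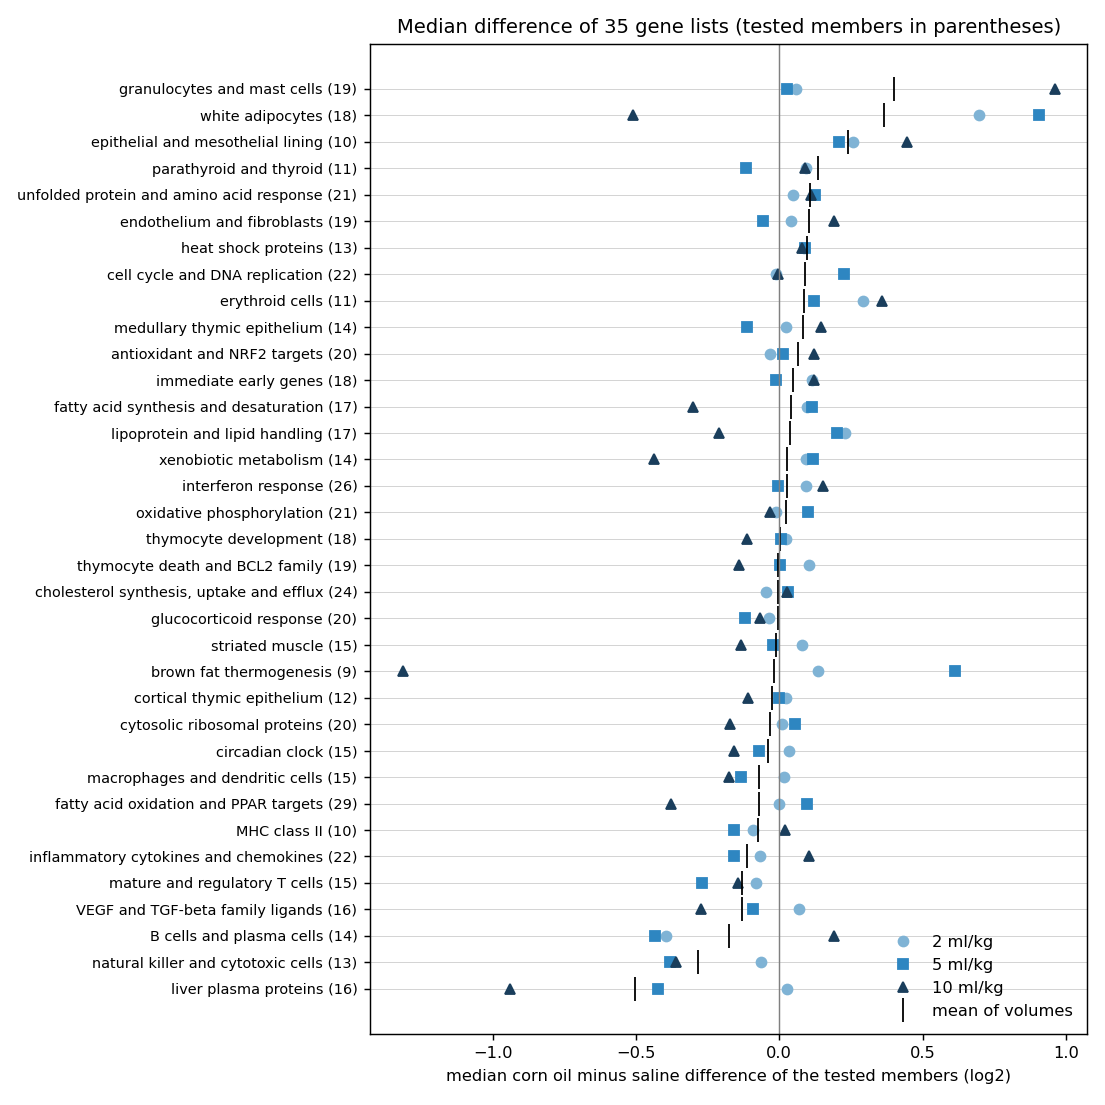
Median corn oil minus saline difference (log2, horizontal axis) of the tested members of 35 gene lists (vertical axis, number of members in parentheses) at each volume, with the mean contrast as a bar. The medians of the heat shock list lie close together, at 0.09, 0.09 and 0.08, and those of white adipocytes far apart, at 0.70, 0.91 and -0.51.

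Among the lists not yet described, called members were held by 2: Bad in the list of thymocyte death and BCL2 family genes, and Vegfb and Gdf3 in that of VEGF and TGF-beta ligands. Cell cycle and replication genes had a median of 0.09 over 22 members, with 5 higher and 0 lower at each volume; it was 0.16 with the slide block and -0.03 without saline replicate 2, where 14 were below 0. The median of the VEGF and TGF-beta ligands was -0.13 over 16 members, 0.22 with normexp and 0.04 with quantile normalization. Cytosolic ribosomal protein genes had a median of -0.03 over 20 members, with 1 higher and 6 lower, which was -0.08 without saline replicate 2 and with normexp and 0.01 with median scaling. Interferon response genes had a median of 0.03 over 26 members (4 higher, 1 lower), and inflammatory cytokine and chemokine genes a median of -0.11 over 22 members (3 higher, 6 lower). The latter turned to 0.04 without saline replicate 2, 0.12 with normexp and 0.06 with quantile normalization. Cholesterol genes had a median of -0.01 over 24 members, with 3 in each direction, and genes of oxidative phosphorylation 0.02 over 21 members (3 higher, 2 lower), or -0.05 with normexp and -0.02 with quantile normalization. Mature and regulatory T cell genes had a median of -0.13 over 15 members, with 1 higher and 6 lower at each volume and -0.19 under the slide block.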

How the data were processed

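Thymus RNA of 19 rats was labelled with Cy3 on 1-colour Agilent arrays, with Feature Extraction 10.7.3.1 and a grid of build rn4, per the file headers. The authors deposited spot intensity on a linear scale, background-subtracted per the file headers, and a table of scaled intensity that served only as an alternative. From the processed signal, log2 values relative to the 75th percentile of each array were computed here, without control spots and with outlier-flagged spots (234 to 1028 per array) set to missing. The most were on slide 3, at 1028, 829 and 858 for 10 ml/kg replicates 1, 2 and 3. Of these, 590, 442 and 589 were flagged as non-uniform, and 173 were on saline replicate 5 of that slide. No array of the other slides had more than 62 non-uniform spots. The part of this in the 10 ml/kg values was not tested. Spots of a probe were averaged. Each array held 42877 spots of 30367 probes and 0 saturated spots; signal over background and the number of arrays limit precision. Probes well above background on at least 4 arrays, with 2 values per group, numbered 25479, and the brightest probe of each gene left 22667 genes, 12621 of them with a symbol. Names came from matching accessions to RefSeq GRCr8, which named 17328 of 30367 probes.

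Fits used limma 3.58.1 (R 4.3.3; eBayes on lmFit, 15 residual degrees of freedom, two-sided tests) with 1 coefficient per group, Benjamini-Hochberg adjustment over 22667 genes and a threshold of 0.05. Unless another test is named, adjusted p-values are limma's. A gene was not carried by 1 volume if it was called in the mean of volumes, had 1 sign at each volume, and was called in each of the 3 means without 1 volume. Fits were tested on simulated data. The arrays, lists and rules were chosen with earlier results of these data known. Named genes were the 12 per direction with the same sign at each volume, ranked by their smallest volume difference if called and then by p; the 4 per direction with the largest mean among genes carried by 1 volume; 22 fixed genes, of which Psmb11 was not tested and 3 others, like 1 gene of the first part of this rule, are not reported here; and up to 4 members per list by p, besides called members. Alternatives were other scalings, filters, weights, blocks and left-out arrays. Normexp used the median and background median signals, since the files hold no mean signal.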

Additional observations from a re-analysis of the deposited data

Results flagged for a closer look

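In 7 of 180 groups of a named gene, 1 array lay far from the others by Dixon's criterion, and chance alone marks about 1 in 20 groups. Saline replicate 2 accounted for 3 of them, with Vegfb at -0.83 (next -1.70), Pdk4 at -4.14 (next -7.32) and Ucp3 at -1.43 (next -4.24). At 2 ml/kg, Clcn7 was at -1.93 in replicate 3 (next -2.56) and Cd8a at 4.10 in replicate 5 (next 3.88). Chmp1b was at -1.14 in replicate 3 at 10 ml/kg (next -0.57), and the glucocorticoid target Fkbp5 was at 2.14 in replicate 1 at 5 ml/kg (next 1.87).

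The corn oil volumes differed by the F test of limma for 26 of 45 named genes, against 1927 of 22667 (8.5%) over all genes. Named genes other than the fixed ones were picked by the mean contrast of these data, whose calls 10 ml/kg decided. Their higher share is therefore no evidence of an excess. Adjusted p-values for the genes carried by 10 ml/kg were Vegfb (5.96e-15), Bad (7e-12), Mei1 (5.94e-11), Lcn2 (6.13e-11), Gdf3 (2.3e-10), Fastkd2 (3.4e-10), Mlycd (3.61e-08) and Cfap68 (2.04e-08). Those of the genes with a positive mean were Tuba8 (9.12e-06), Spata46 (1.01e-05), Vsig8 (1.01e-05), Slc28a2 (0.000679), Serinc2 (5.4e-06), Cdhr1 (1.01e-05), Copg2 (1.01e-05), Mgmt (8.32e-05) and Prss30 (1.01e-05). Those of the genes with a negative mean were Mmp16 (0.000454), Fitm1 (0.0129), Pofut1 (7.63e-06), Rasgrf2 (0.000185), Baat (6.76e-05), Chmp1b (6.46e-05) and Clcn7 (0.0184). Of the fixed genes, Cpt1a (0.00814) and Pdk4 (0.0091) passed. The saline arrays enter none of these tests except through the shared estimate of the spread.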

How the results depend on the processing

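That no gene met the full criterion held in every setting run, leaving out each array in turn included (0 genes each time). The number of genes called (23) was 0 with the 14 corn oil arrays as 1 group (631 at unadjusted p under 0.05), 39 with array weights, 7 with normexp, 63 with scan day as a block, 44 with slide as a block and 15 without slide 1 (chosen after seeing the data). It was 14 to 27 without 1 array, with 15 without saline replicate 1 and 14 without saline replicate 4. Quantile normalization gave 23, with 16 higher against 14, and 47 of the 63 with the scan day block were higher. The number also in the same direction at each volume (10) was 6 for probes above background on all 19 arrays, 22 with array weights, 6 with normexp, 16 with a random slide block, 47 with the scan day block and 37 with the slide block. It was 5 to 14 without 1 array, lowest without 5 ml/kg replicate 3, and 6 without 2 ml/kg replicate 3 or 4, 5 ml/kg replicate 4 or saline replicate 4. Genes whose volumes differ (1927) were 9023 with array weights, 298 with normexp, 673 with the random slide block, 481 with the scan day block, 255 with the slide block and 969 without slide 1. They were 1054 to 3364 without 1 array, at 1163, 1135, 1054 and 3364 without 10 ml/kg replicates 1, 2, 3 and 5. Cfap68 was the 1 called gene that turned sign, to 0.12 with normexp. The cause of these changes was not tested.

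Same-numbered arrays had deviations that correlated at -0.64 to 0.71 over 27 pairs, and 6 of 19 arrays correlated best with their own number. Whether same-numbered arrays were paired cannot be settled from these values, since the pairs also share or differ in slide. The labels give only the number. With the replicate block, 14 genes were called, 3 of them in the same direction at each volume, and 1249 genes had volumes that differ.

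Normexp moved the list medians of VEGF and TGF-beta ligands to 0.22, of cytokines to 0.12 and of liver plasma proteins to 0.13. Over named genes, 1308 values kept direction and side of the threshold, 57 of uncalled genes turned sign without a call (47 of them in genes within 0.1 of 0), 76 lost a call and 28 gained one. Normexp turned 12 genes, among them Pheta2, Acot1 and Pdk4 (0.12, 0.13 and 0.31). Depth limits the dim genes: Aire was well above background on 15 of 19 arrays and Ncr1 on 8.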
